A study of Homo sapiens with 2 samples.

Results

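Crowded peaks were the ChIP peaks of dCas9-BFP-DNMT3A whose summit lay 20 kb or less from the summit of another peak on the same chromosome. They numbered 1466 of the 7748 peaks on chromosomes 1 to 22 and X, or 18.9% (95% Wilson interval 18.1 to 19.8), and the other 6282 peaks are called lone. Crowded peaks linked by the same distance were joined into 675 clusters. The members were chosen by the measured summit positions, so their closeness is a description and was given no test.

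HEK293T cells, an established human embryonic kidney line, had received 500 ng of dCas9-BFP-DNMT3A plasmid together with 500 ng of plasmids for 5 gRNAs (T1 to T5) against the promoter of *uPA*, the gene for urokinase (*PLAU*). The fusion joined catalytically dead Cas9, a blue fluorescent protein and the catalytic domain of the DNA methyltransferase DNMT3A, which had been amplified from an expression plasmid. Chromatin was taken 48 hours after transfection, precipitated with an antibody against the HA tag of the fusion, and compared with an input sample whose transfection the labels do not state. There was 1 ChIP sample with 1 peak list, so the spread between replicates is unknown, no peaks from cells without gRNAs or without the fusion were analysed here, and the identity of the cells cannot be checked from peaks.

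A gRNA leads dCas9 to DNA that carries the matching protospacer beside a PAM, which is NGG for the *Streptococcus pyogenes* protein. The bases next to the PAM, the seed, pair first, and dCas9 can hold DNA with little more than a seed match. Without nuclease activity dCas9 leaves no cut, so ChIP of a tag on the fusion records the DNA recovered with the tagged protein.

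The T2 gRNA is shown because its seed was the most frequent of the 5 at these summits, with the 11 bases next to the PAM in capitals.
T2 gRNA: gagccgggcGGGAGAGGGAG

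T2 contains 13 G, 4 A, 3 C and no T. The next sequences are the genomic sites in hg19, 5′ to 3′ on the strand named, at the *PLAU* target and at summits of the crowded peaks on which the results below turn. Capitals mark the bases matched without a break from the PAM, and the GG of the PAM.
*PLAU* target, chr10:75670819-75670841, plus strand: GAGCCGGGCGGGAGAGGGAGgGG
*PLEKHA6* intron, chr1:204308626-204308648, plus strand: ttgtgtgctGGGAGAGGGAGaGG
*ATG16L1* intron, first of a pair, chr2:234128548-234128570, plus strand: gggaaaaagGGGAGAGGGAGgGG
*ATG16L1* intron, second of the pair, chr2:234143268-234143290, plus strand: gcaggaagaGGGAGAGGGAGaGG
*NKAIN1* intron, first of a pair, chr1:31656887-31656909, plus strand: tgagtgtgaGGGAGAGGGAGgGG
*NKAIN1* intron, second of the pair, chr1:31668408-31668430, minus strand: aaggatctgGGGAGAGGGAGaGG
upstream of *PI16*, chr6:36908786-36908808, minus strand: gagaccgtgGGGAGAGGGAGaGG
*PI16* intron, chr6:36928401-36928423, minus strand: gggggtggaGGGAGAGGGAGgGG
*MTCH1* intron, chr6:36940592-36940614, plus strand: gagatgagcaGGAGAGGGAGaGG
*GMDS* intron, chr6:1943729-1943751, plus strand: ttttctgcaGGGAGAGGGAGgGG
near *DUSP16*, longest run, chr12:12718332-12718354, minus strand: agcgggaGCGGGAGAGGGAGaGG

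These sites share the 3′ end of T2 and differ in the bases before it. The *PLAU* peak itself, chr10:75669472-75671059, was lone: its nearest neighbouring summit was 35340 bp away, and it held 62 tags at a fold enrichment of 4.21. Its summit was at 75670697, and the T2 target site began at 75670819. The target site thus lay inside the peak but outside the window around the summit in which T2 runs are counted below. That rule therefore does not count the full T2 match at *PLAU*, and it can miss matches farther from a summit. Tags are the ChIP reads counted in the peak, and fold enrichment is the height of the ChIP signal at the summit over the background MACS estimated around it from the input, not the peak's tag count over that background.

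Most clusters were pairs. There were 583 clusters of 2 peaks, 73 of 3, 14 of 4 and 5 of 5, and the 92 clusters of 3 or more held 300 peaks. From first to last summit the clusters spanned 642 to 48020 bp, with a median of 10555 bp. The 791 pairs of neighbouring summits within clusters made up 10.2% of the 7725 adjacent pairs, and their median distance was 8663 bp, against 167164 bp over all adjacent pairs. No 2 peaks overlapped, but the facing ends of 84 neighbour pairs lay less than 1 kb apart and the closest ends were 2 bp apart. Whether such pairs are separate places of enrichment or 1 place divided by the peak caller was not tested.

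**Figure D1:**
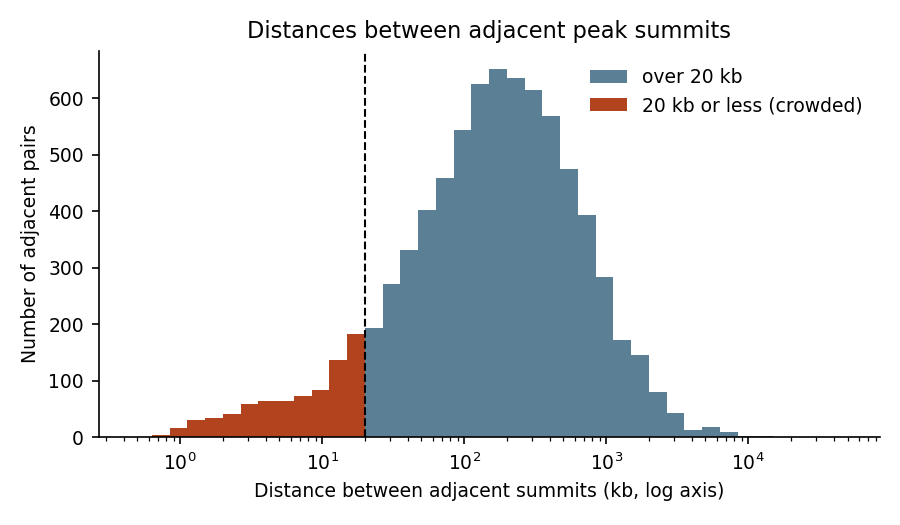
Number of adjacent pairs of summits by distance (kb, log axis), with pairs at 20 kb or less in red and more distant pairs in blue, and the threshold as a dashed line. The 791 neighbour pairs form the left shoulder of the distribution of 7725 pairs, whose median is 167164 bp.

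At the threshold, the most distant pairs still taken in were 19941 bp apart near *YTHDF3*, 19945 bp apart at *BBS5* and 19977 bp apart between *C12orf54* and *OR8S1*. The nearest pairs left out were 20015 bp apart in *MFAP3*, 20056 bp apart in *CYB5B* and 20138 bp apart at *DSP*. The 6 peaks just inside had 21 to 47 tags and the 6 just outside 23 to 39 tags. Both summits of the *C12orf54* and *OR8S1* pair carried a T2 run of 11 bases, and none of the other 10 peaks carried T2.

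In height and width crowded and lone peaks were alike in their medians. The median fold enrichment was 3.87 for crowded peaks (quartiles 3.37 and 4.51, range 2.15 to 11.75) and 3.84 for lone peaks (quartiles 3.35 and 4.44). The median number of tags was 35 against 34, and the median width 933 bp against 914 bp. A fold enrichment of 6 or more was reached by 114 crowded peaks, or 7.78%, beside 7.49% of all peaks. A MACS score of 50 or more, which is a *P* of 1e-05 or less, was reached by 263 crowded peaks, or 17.9%, beside 15.8% of all peaks. MACS gave 79.4% of crowded peaks and 82.3% of lone peaks an FDR of 100%, and the lowest FDR of a crowded peak was 14.2%. The median GC content, over 250 bp on each side of the summit, was 41.3% in crowded peaks and 39.5% in lone peaks.

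Within 70 bp of the summit, T2 matches were about as frequent at crowded as at lone peaks. A T2 run is the number of T2 bases matched without a break from the PAM, with the last 5 bases and NGG wholly within 70 bp of the summit on either strand. A peak with no run of 5 or more there is called T2-free or without T2, although it may hold one farther from its summit. A run of 5 or more was found at 266 crowded summits, 18.1% (16.3 to 20.2), where 17.2% of all peaks had one, and at 17.0% (16.1 to 18.0) of lone summits. A run of 8 or more was found at 201, 13.7% (12.0 to 15.6), where 13.1% of all peaks had one. A run of 11 or more was found at 135, 9.21% (7.83 to 10.8), where 9.74% of all peaks had one, and at 9.87% (9.16 to 10.6) of lone summits. These intervals are 95% Wilson intervals, cover counting error only and overlap between crowded and lone peaks at each length. They did not overlap in 2 of the alternative settings, and these differed in direction. Over the whole peak, runs of 5 or more were in 35.6% (33.2 to 38.1) of crowded and 31.4% (30.3 to 32.6) of lone peaks, and with crowding defined at 50 kb, runs of 11 or more were in 8.13% (7.18 to 9.19) of crowded and 10.7% (9.85 to 11.6) of lone peaks.

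**Figure D2:**
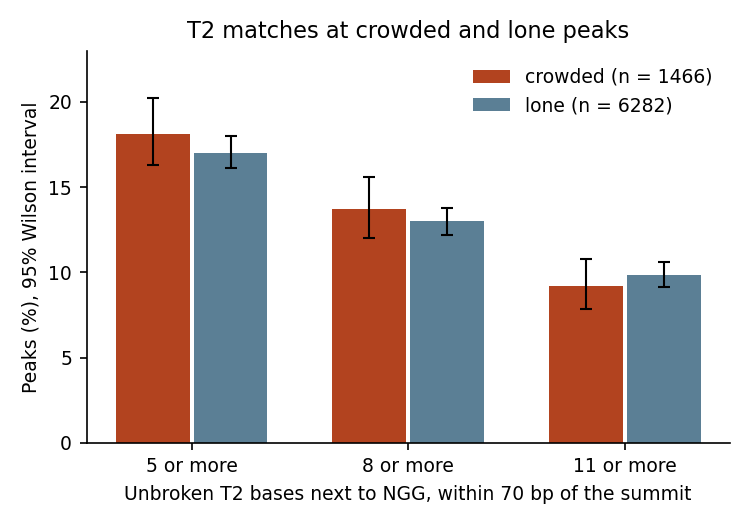
Percent of crowded (red) and lone (blue) peaks with an unbroken T2 run of at least 5, 8 or 11 bases beside NGG near the summit, bars from 0, with 95% Wilson intervals as error bars. The shares are 18.1% and 17.0% for 5 bases and 9.21% and 9.87% for 11 bases, and the intervals overlap at each length.

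The seeds of the other 4 gRNAs were rarer at crowded summits. T1 was found at 4 (0.273%, where 0.4% of all peaks had it) and T3 at 23 (1.57%, 1.05 to 2.34, where 1.07% of all peaks had it). T4 was found at 43 (2.93%, 2.18 to 3.93, where 2.45% of all peaks had it) and T5 at 33 (2.25%, 1.61 to 3.14, where 1.55% of all peaks had it). Lone peaks carried T3 in 0.955% (0.743 to 1.23), T4 in 2.34% (1.99 to 2.74) and T5 in 1.38% (1.12 to 1.71). The crowded shares of these 3 were above the lone shares, with intervals that overlap.

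The length of the T2 run was concentrated at 11 bases. Of the 266 summits, 131 had a longest run of exactly 11 bases, 37 of 10, 14 of 9, 15 of 8, 3 of 7, 25 of 6 and 37 of 5. Only 3 summits, near *DNAJC13*, in *CAPRIN1* and near *THOC2*, had 12 bases and 1, near *DUSP16*, had 13. No crowded summit had 14 or more. The base before a run of exactly 11, where T2 has C, was A at 70 sites, G at 45 and T at 16. At the 135 sites with 11 or more bases the first base of the PAM was A in 97, G in 20, T in 14 and C in 4. Counting all 20 positions, with or without a break, these sites matched T2 at 11 to 16 bases, with a median of 13.

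Of the 135 crowded summits with a run of 11 or more, 39 held more than 1 such run, as did 175 of the 620 lone ones. Whether these runs overlap or stand in repeats was not tested.

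T2 seldom marked more than 1 peak of a cluster, or more than 1 peak of an adjacent pair over 20 kb apart. In 437 clusters, or 64.7%, no member had a T2 run of 5 or more. Another 211 clusters had 1 such member, 26 had 2 and 1 had 3. Such a run was at 17.2% of all peaks. Adjacent pairs over 20 kb apart had it at neither summit in 69.2% and at both in 3.29%. Among clusters of 3 peaks 31 of 73 had any T2 member, among clusters of 4 it was 7 of 14, and among clusters of 5 it was 3 of 5. Per peak, T2 was at 18.4% of the summits in pairs, 17.4% in clusters of 3, 19.6% in clusters of 4 and 12.0% in clusters of 5. The Wilson interval was 16.2 to 20.7 for pairs and 4.17 to 30.0 for clusters of 5, so no order by cluster size can be read from these shares.

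Distance was also set against T2. Of the 791 neighbour pairs, 26 had T2 at both summits, 3.29% (2.25 to 4.77), 241 at 1 summit (30.5%) and 524 at neither (66.2%). Of the 6934 adjacent pairs more than 20 kb apart 228 had T2 at both, also 3.29% (2.89 to 3.73). In these distant pairs T2 was at 1 summit in 27.5% and at neither in 69.2%. None of the 87 pairs within 2 kb had T2 at both summits, with a Wilson upper bound of 4.23%, and 33 of them had it at 1. From 10 to 20 kb 16 of 364 pairs had T2 at both, or 4.4% (2.72 to 7.02). These intervals overlap.

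**Figure D3:**
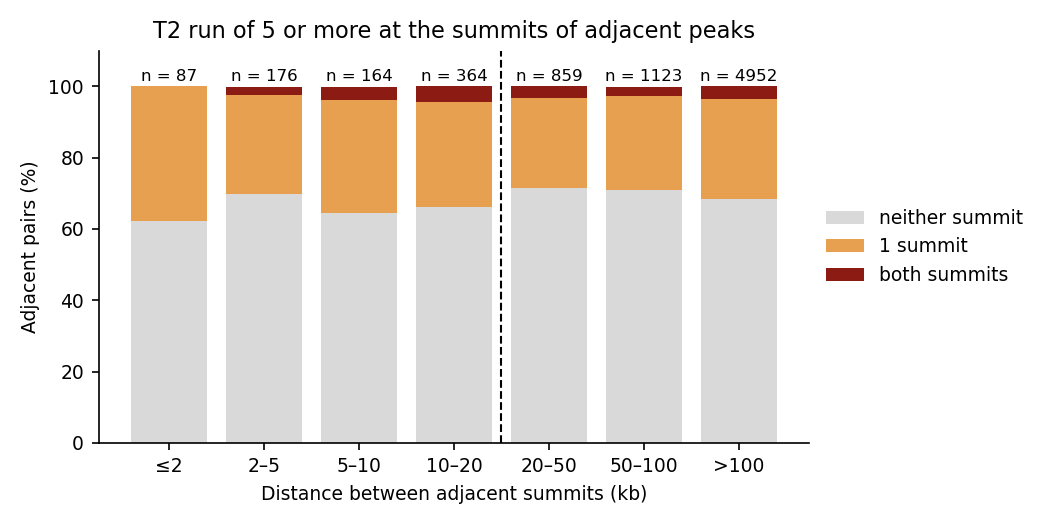
Percent of adjacent pairs of peaks with a T2 run of 5 or more at neither summit (grey), at 1 summit (orange) or at both (dark red), by the distance between the summits, with the number of pairs above each bar and the 20 kb threshold as a dashed line. Pairs with T2 at both summits are 0 of 87 within 2 kb, 16 of 364 from 10 to 20 kb, and 170 of 4952 above 100 kb.

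Where a cluster had 1 peak with a strong T2 run, that peak was usually the one with the highest fold enrichment. There were 116 clusters with 1 member with a run of 11 or more and at least 1 member without T2. In 103 of them, 88.8%, the T2 peak had the highest fold enrichment of the cluster, and in 63, 54.3%, it had the most tags. The median fold enrichment was 5.72 for the T2 peaks (quartiles 4.69 and 6.92) and 3.67 for the T2-free members of the same clusters (quartiles 3.4 and 4.21). The median number of tags was 39 for the T2 peaks and 36 for the T2-free member with most tags. With runs of 8 or more in place of 11, a setting chosen after the data were seen, the medians were 5.48 and 3.68.

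**Figure D4:**
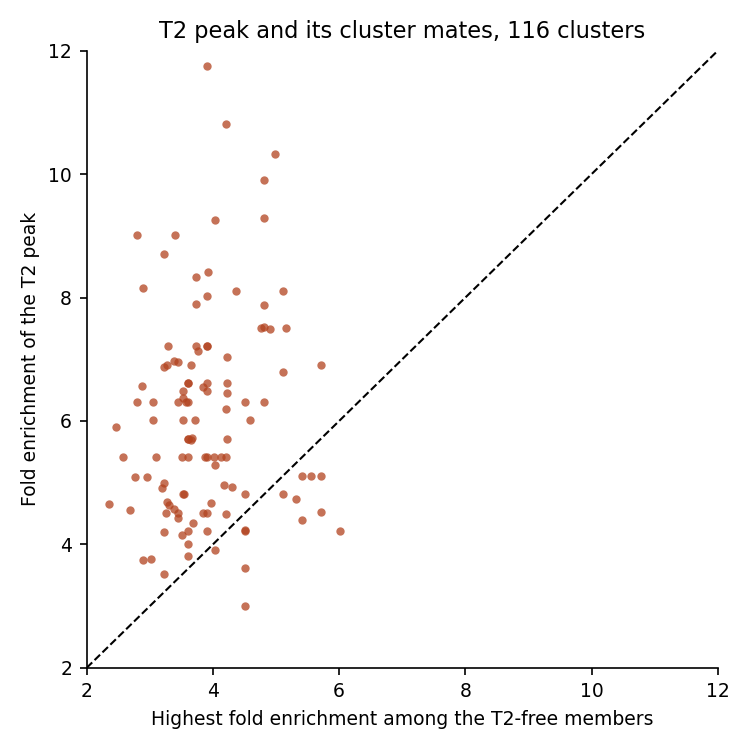
Fold enrichment of the peak with a T2 run of 11 or more (vertical axis) against the highest fold enrichment among the T2-free members of its cluster (horizontal axis), 1 point per cluster, with equality as a dashed line. In 103 of 116 clusters the T2 peak also exceeds every other member, and points above the line reach 11.75 while the T2-free members stay near or below 6.

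T2-free peaks beside a T2 peak had nearly the fold enrichment of T2-free peaks elsewhere. The 264 T2-free members of clusters with a T2 member had a median fold enrichment of 3.74, the 936 members of clusters without T2 had 3.62, and T2-free lone peaks had 3.63. The 135 crowded peaks with a run of 11 or more had a median of 5.73, and the 620 lone ones 6.01. In the genome 6819 sites had a T2 run of 11 or more with NGG. Of these, 299 lay in 154 clusters, counted from the start of the first peak to the end of the last. Within 70 bp of a summit were 227 of the 299. The other 72 sites, in 36 clusters, lay away from any summit.

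Neighbouring peaks resembled each other more in tags than in fold enrichment. Across the 791 pairs Spearman's rho was 0.315 for tags and 0.11 for fold enrichment, and Pearson's r of the log2 values was 0.411 and 0.112. For adjacent pairs more than 20 kb apart rho was 0.23 for tags and 0.114 for fold enrichment. These are descriptions across pairs, since neighbours can share a peak in 2 pairs, the library and the regional background, for which MACS uses windows up to 10 kb.

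The sequence around neighbouring summits was rarely alike. Within 250 bp of both summits, 12 of 791 pairs, 1.52%, shared any word of 16 bases on either strand, and the most alike pair shared 11.9% of its words. Among 1982 adjacent pairs 20 to 100 kb apart the share was 1.46%.

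The 10 crowded peaks with the highest fold enrichment all carried a T2 run of 10 or 11 bases, where 13.1% of all peaks had 8 or more. *PLEKHA6* on chromosome 1 was first, at 11.75 with 72 tags, and its neighbour was 4415 bp away. *ATG16L1*, an autophagy gene, followed at 11.72 with 54 tags, *NKAIN1* at 11.12 with 60 tags, and *SOD2*, the mitochondrial superoxide dismutase, at 10.82 with 62 tags. *TFDP2*, a partner of E2F factors, reached 10.32 with 74 tags and held 3 runs of 11 bases. *CRYBB1*, a lens crystallin, reached 9.91 with its summit 202 bp from a transcription start. The remaining peaks were near *HEY1* (9.78), in *CPN1* (9.38), near *ST8SIA2* (9.29) and in *GMDS* (9.25). Of the 10 summits, 8 lay in introns and 2 between genes, where 48.9% and 48.3% of all summits lay. The highest fold enrichment of a lone peak was 13.34.

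In 7 clusters 2 peaks had a run of 11 or more, and the 5 with the highest fold enrichment are described. At *ATG16L1* the 2 intronic summits were 14689 bp apart and had fold enrichments of 11.72 and 5.14. At *NKAIN1* the summits were 11517 bp apart, at 11.12 and 4.4. Sites with the same 11 matched bases thus differed more than 2-fold in fold enrichment within 1 gene, and no replicate shows the error of such a difference. Near *PLXNA1*, a semaphorin receptor, both summits stood at 7.81, with 36 and 43 tags and 9966 bp between them. Near *CYP1A1*, an enzyme of xenobiotic metabolism, they stood at 8.77 and 7.51, and the second held 3 runs of 11. The cluster at *PI16* and *MTCH1* on chromosome 6 was the 1 cluster with T2 at 3 summits, with runs of 11, 11 and 10 and fold enrichments of 5.41, 5.41 and 8.69.

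The peak with the most tags belonged to a cluster in *DNMT3A*, the gene whose catalytic domain the transfected fusion carried. Its 5 summits spanned 9592 bp on chromosome 2. From the 5′ to the 3′ end of the gene, which is on the minus strand, the peaks held 104, 505, 107, 152 and 200 tags. Their fold enrichments were 8.89, 7.36, 7.44, 4.67 and 6.58. The 505 tags were the most of all 7748 peaks, although the deposited FDR of that peak is 100%. No summit had a T2 run of 5 or more.

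All 5 *DNMT3A* summits lay in coding exons. In the transcript with most coding bases, which has 22 coding exons, the peaks covered exons 14 to 19, 21 and 22, and no peak covered exon 20. Exons 1 to 13 had no peak either. The 8 covered exons held 999 of 2736 coding bases, or 36.5%. A lone sixth peak of the gene, with 28 tags at 4.51, was outside coding sequence. The 141 bases around the summit with 505 tags, chr2:25464454-25464594 on the plus strand, are shown because 123 of them are coding, in capitals, and the rest intronic.
*DNMT3A* summit: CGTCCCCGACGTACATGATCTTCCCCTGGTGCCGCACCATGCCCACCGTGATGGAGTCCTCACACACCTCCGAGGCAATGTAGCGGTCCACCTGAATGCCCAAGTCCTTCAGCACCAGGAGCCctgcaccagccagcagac

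**Figure D5:**
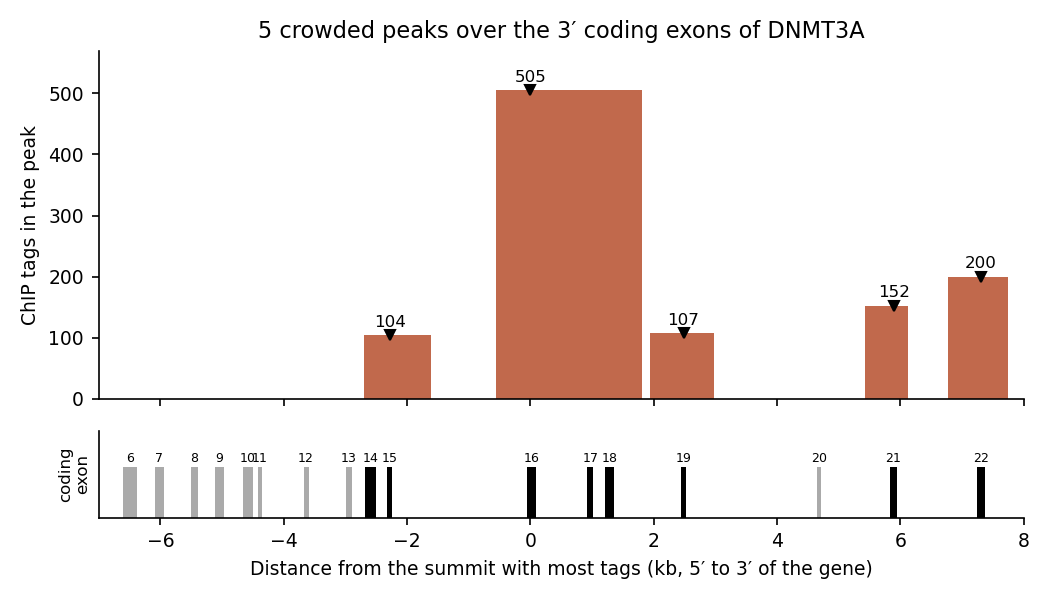
The 5 crowded peaks of *DNMT3A*: bars span each peak and reach its ChIP tags, triangles mark summits, and the lower strip shows coding exons by number, black where a peak covers them and grey where none does; the horizontal axis is the distance in kb from the summit with most tags. The peaks with 104 to 505 tags lie over exons 14 to 19, 21 and 22.

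Plasmid DNA with the *DNMT3A* coding sequence was in the transfected cells, and reads from it would map to coding exons. Its part in these tags was not tested, since the list holds no reads across exon junctions and no tag counts of the input. Over the whole list, 12 crowded summits were in coding sequence, 0.819%, where 0.8% of all peaks were, and 5 of those 12 were the *DNMT3A* summits. Among the others were summits in *BBS5*, *GALNT11*, *NUDT5*, *A2M*, *CDKL1* and *ALDH1A3*, with 24 to 77 tags. When any overlap counted, 115 crowded peaks, 7.84%, covered coding sequence, where 6.62% of all peaks did.

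The other 11 clusters with most peaks had all 48 summits in introns or between genes, where 48.9% and 48.3% of all summits lay. A T2 run of 5 or more was at 11 of these summits, 22.9% (13.3 to 36.5), where 17.2% of all peaks had one. Introns here are the parts of gene bodies outside the exons of basic protein-coding transcripts, which also holds for the summit in *JUN*. *GMDS*, the enzyme that starts GDP-fucose synthesis, held the longest cluster, 5 intronic peaks over 48020 bp on chromosome 6. Their tags were 75, 42, 82, 47 and 80 and their fold enrichments 2.92, 4.04, 2.75, 2.80 and 9.25, and the last, the 1 with T2, stood far above the other 4. *CELF4*, an RNA-binding protein of neurons, held 5 intronic peaks of 26 to 36 tags over 40318 bp. Its T2 peak reached 4.81, below a T2-free member at 5.11, and so *CELF4* did not follow the order seen in *GMDS*.

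The cluster at *CPN1*, the catalytic subunit of carboxypeptidase N, had 5 peaks. The 1 with a T2 run of 10 reached a fold enrichment of 9.38 with 44 tags, and the T2-free members ranged from 2.92 to 5.04 with 24 to 66 tags. Upstream of *KDM5B*, a histone demethylase, 5 T2-free peaks of 21 to 34 tags at 3.30 to 4.81 spanned 43463 bp, the first of them 386 bp from the *KDM5B* start.

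Clusters of 4 peaks followed. In and downstream of *JUN*, the AP-1 factor, 4 T2-free peaks held 73, 94, 119 and 37 tags at fold enrichments of 3.21, 2.99, 3.36 and 5.03. Here the peak with fewest tags had the highest fold enrichment. Between *ACBD3* and *MIXL1* the 4 peaks held 73 to 84 tags, and the 1 with a T2 run of 9 was highest, at 4.33. In *ACTN1*, an actin crosslinker, 4 peaks without T2 at the summit held 20 to 43 tags at 3.61 to 5.16. A T2 run of 11 or more lay between the outer ends of the peaks of this cluster but not within 70 bp of any summit. At *ACSL3*, an acyl-CoA synthetase, the members with T2 runs of 10 stood at 4.80 and 4.50 and the T2-free ones at 3.48 and 4.46.

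In *KIAA1217* the 4 intronic peaks stood at 4.81 and 5.11 without T2, 6.79 with a run of 11 and 5.64 with a run of 10. Upstream of *AGFG2* a summit with 3 runs of 11 stood at 6.31, one with a run of 9 at 5.71, and 2 without T2 at 4.51 and 3.61.

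The closest summits were 642 bp apart, 23950 bp from the start of *SIX2*, a homeobox gene of kidney progenitors. They stood at fold enrichments of 4.21 and 8.71. A T2 run of 11 or more lay between the outer ends of their peaks but not within 70 bp of either summit. The next closest pairs, near *WNT9A* (666 bp), at *TMEM219* (713 bp), near *TRAPPC8* (779 bp) and near *SLAMF9* (844 bp), had no T2 run at these summits and 23 to 56 tags. The other peak of the *TRAPPC8* cluster held 5 runs of 11 and had 23 tags at 4.51. Among all 87 pairs within 2 kb, 20 had a run of 11 or more at a summit, 1 only between the summits and 2 only elsewhere in the peaks.

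Of the genes the study examined in other experiments, *TGFBR3*, the betaglycan receptor, held 1 pair of T2-free intronic peaks, 16483 bp apart, with 87 and 60 tags at 2.67 and 3.18. The nearer summit was 134391 bp from a *TGFBR3* start, the promoter had no peak, and *GAPDH* had none.

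Crowded peaks lay in genes as often as others. The summit was in a protein-coding gene for 755 crowded peaks, 51.5% (48.9 to 54.1), where 51.7% of all peaks were. By place, 709 summits (48.4%) were in introns, 711 (48.5%) between genes, 34 (2.32%) in UTR exons and 12 (0.819%) in coding exons. Over all peaks these shares were 48.9%, 48.3%, 2.08% and 0.8%. In 283 clusters, 41.9%, 1 gene held every summit, in 277, 41.0%, no summit was in a gene, and 115 were mixed. Neighbour pairs had both summits in 1 gene in 42.9% of cases, against 13.2% of more distant adjacent pairs, from which they were selected on distance.

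Promoters, the 2 kb upstream of a transcription start, were covered by 77 crowded peaks, 5.25% (4.22 to 6.52), where 3.91% of all peaks and 3.6% (3.16 to 4.09) of lone peaks covered one. The intervals of crowded and lone peaks did not overlap here. Nor did they with crowding defined at 10 kb, at 5.76% (4.36 to 7.58) and 3.69% (3.27 to 4.16). They did overlap with crowding defined at 50 kb, at 4.58% (3.87 to 5.41) and 3.53% (3.04 to 4.08). With promoters of 1 kb they also overlapped, at 3.34% (2.54 to 4.39) and 2.16% (1.83 to 2.56). The median distance from summit to the nearest transcription start was 24500 bp for crowded and 40730 bp for lone peaks. The promoter peaks stood in 72 clusters, and 5 clusters held more than 1.

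Crowded summits lay in 425 genes, of median length 105 kb, and 17 genes held 4 or more. *GMDS* held 7 crowded summits of its 10, *CELF4* 5 of 8, *TENM2* 5 of 10, and *DNMT3A* 5 of 6. *FANK1* on chromosome 10 held 5 of 5, without T2, at 3.35 to 5.98, in a gene of 113 kb. *LRP2*, an endocytic receptor of the proximal tubule, held 4 with 2 T2 runs, *PRICKLE2* 4 with 1, and *MAPK10*, *RCSD1*, *STX6* and *THSD4* 4 without T2. These genes ranged from 39.7 kb (*CPN1*) to 1290 kb (*TENM2*).

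Few crowded summits lay in the gene families examined, and their shares were not all lower than among lone peaks. Zinc finger genes held 4, 0.273% of crowded summits and 0.541% of lone ones, and solute carriers 8, 0.546% and 1.15%. Olfactory receptors held 3, in *OR4D1* and *OR6B1*, which is 0.205% of crowded summits, against 1 lone summit, 0.0159%. No crowded summit lay in a clustered protocadherin, keratin, NBPF, golgin A, USP17-like, TBC1D3, PRAME, SPATA31, HOX, mucin, collagen, interferon or defensin gene. Nor did any lone summit lie in an NBPF, golgin A, USP17-like, TBC1D3, PRAME or SPATA31 gene. Protocadherins, keratins and interferon genes held 2 lone summits each, and HOX genes, mucins and defensins 1 each. Collagens held 13 lone summits, 0.207%. *CDH23* held 2 crowded summits as the 1 cadherin, 0.136%, against 0.111% of lone summits in cadherins. Genes of rRNA lay within 20 kb of 3 crowded peaks and 1 lone peak. The 3 crowded ones form 1 cluster on chromosome 1, near *RNF187*, with 122, 128 and 24 tags at fold enrichments of 2.62, 3.13 and 3.61 and no T2.

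Peaks of 100 tags or more numbered 41 among crowded peaks, 2.80%, where 2.37% of all peaks reached this. They stood in 31 clusters. Of the 41 peaks 19 were on chromosome 1, which held 19.7% of crowded peaks and 13.4% of all peaks. A T2 run of 5 or more was at 6 of the 41, where 17.2% of all peaks had one. Their median fold enrichment was 3.02, below the 3.87 of crowded peaks as a whole. After *DNMT3A* the highest tag counts included 240 in *UBE2U*, without T2, 223 near *ZNF678*, with a T2 run of 11, 221 in *LYST*, without T2, and 211 in *TIAM2*, with a run of 11.

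The crowded share of peaks differed between chromosomes. It was highest on chromosome 10, at 29.3% (25.5 to 33.4), with 147 of 502 peaks, and on chromosome 1, at 27.7% (25.1 to 30.5), with 289 of 1042. Chromosome 22 had 25.2% and chromosome 15 24.9%, and the lowest were chromosome 20 with 8.77%, chromosome 13 with 10.3% and chromosome 21 with 10.7%. Peaks per sequenced Mb were 3.82 on chromosome 10, 4.63 on 1, 4.56 on 22 and 3.73 on 15, against 1.92 on 20, 1.62 on 13 and 2.93 on 21. On chromosome 10, which carries *PLAU*, T2 runs of 5 or more were at 14.3% of crowded summits, and on chromosome 1 at 19%. The copy number of these chromosomes in the cells was not analysed here, and its part in the density was not tested.

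Among peaks with a *P* of 1e-05 or less alone, 74 were crowded, in 35 clusters. The clusters of 3 or more were then the 5 peaks of *DNMT3A* and the 3 of *PI16* and *MTCH1*. The *DNMT3A* cluster had no T2 run of 5 or more at any summit, and the other had T2 at each.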

How the data were processed

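ChIP-seq of 1 sample with 1 input was analysed. The authors aligned single-end reads to hg19 (SOAP2), brought unique reads to the same number in ChIP and input, and used MACS 1.4.2 at *P* 0.001 (62723055 ChIP and 62723050 input tags, 44934315 and 46375481 after duplicates were removed). Their methods also name triplicates and removal of peaks in repeats and rDNA, which the list does not show. The main text of the paper reports far fewer enriched peaks than this list holds. A supplementary figure caption gives a number of off-target binding sites close to the number of peaks in this list. Which of the listed peaks are among the enriched peaks of the main text was not determined here. The deposited tag counts are whole ChIP tags per peak, the deposited fold enrichment is a ratio to the input background, the deposited score is the negative log10 of *P* times a factor of 10, and the deposited FDR is a percent. Positions, in other deposited columns, count from 1, and the summit was start plus offset less 1.

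Sites, GC and words were read from GRCh37, and genes from GENCODE 44 on that build (protein-coding, basic transcripts), with Python 3.11.15 and pysam 0.24.0. A summit within a gene but outside every exon of these transcripts was called intronic. Guide sequences came from the study's supplement. Chaining and site search were tested on simulated data. No test between groups was run: peaks of 1 list are not replicates. Intervals are 95% Wilson.

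Named were the 12 clusters with most peaks, 5 with most T2 runs of 11, 5 with closest summits, clusters at *PLAU*, *GAPDH* or *TGFBR3*, 10 peaks with highest fold enrichment and 3 pairs on each side of the threshold. Genes with 4 or more crowded summits, families, coding-exon, rRNA and high-tag peaks, the longest runs and the *DNMT3A* window were chosen after their values were seen. Some items that these rules named are not reported here. Members and lists were chosen with earlier results of these data known. Alternatives changed the distance, window, *P*, chromosome 1, large clusters, gene and promoter definitions and word length.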

Additional observations from a re-analysis of the deposited data

Results flagged for a closer look

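The list holds 8 peaks on 6 other contigs, which were not used because the reference names these contigs differently. They had 25 to 141 tags. On the 2 contigs with 2 peaks the shortest summit distance was 25249 bp, so none would have been crowded. The 1 peak on chromosome Y was not used either.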

How the results depend on the processing

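Of 106 alternative values 63 stayed within 1.5 times the reported count or within the interval of the reported value, and 43 did not. With summit distances of 10 kb there were 816 crowded peaks (10.5%) in 389 clusters, 34 of 3 or more, and with 50 kb 2841 (36.7%) in 1191, 308 of 3 or more. With only peaks at *P* of 1e-05 or less there were 74 (6.06%) in 35 clusters, 2 of 3 or more. T2 runs of 5 or more were then at 50% of crowded and 50.9% of lone summits and runs of 11 or more at 32.4% and 35.7%. Without chromosome 1, 17.6% of peaks were crowded, the median width was 918 bp for crowded and 896 bp for lone peaks, and lone peaks had a median of 33 tags and a fold enrichment of 3.91.

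Within 35 bp of the summit T2 runs of 5 or more were at 14.5% of crowded and 14.5% of lone peaks, and over the whole peak at 35.6% and 31.4%. Runs of 11 or more were in 8.53% of crowded and 9.01% of lone peaks within 35 bp, 10.6% and 11.2% over the whole peak, and 8.13% and 10.7% with 50 kb. T2 was at 1 summit of 24.4% and at neither of 73.1% of neighbour pairs within 35 bp, and over the whole peak at both of 13.1%, at 1 of 46.3% and at neither of 40.6%. Summits in genes were 48.3% of crowded peaks with 10 kb, and with 50 kb 54.3% of crowded and 50.3% of lone peaks, whose median width was 902 bp. Promoters of 1 kb were covered by 3.34% of crowded and 2.16% of lone peaks. Pairs sharing words were 10.5% with 12 bases, 0.506% with 24 bases and 0.759% within 70 bp. Without the *DNMT3A* cluster, an alternative chosen after the data were seen, 7 crowded summits were in coding sequence. The causes were not tested, beyond fewer peaks, narrower windows or shorter words. No paired analysis was possible because the ChIP and the input have 1 sample each and the result comes from no test.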
